A study of Arabidopsis thaliana with 14 samples.

Results

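Leaves of the CAMTA5 overexpression line OX-5, written OX5 here, after 14 days of drought (2 arrays) were compared with leaves of watered wild-type Col-0 plants (3 arrays). These 5 of the 14 arrays of the series were chosen by their titles, and the question was which of the usual drought changes were present in the line and which were absent. All plants were 1 month old and of the Col-0 ecotype, and each ATH1 array, an Affymetrix chip with sets of short probes for most Arabidopsis genes, was hybridised with material made from 250 ng of total leaf RNA. The other 9 arrays were Col-0 after 14 days of drought (3), the mutant line camta5-a with water (3) and camta5-a after 14 days of drought (3), written camta5 here. The labels name no promoter behind the overexpression and give 1 overexpression line. The titles call the arrays of each group biological replicates, but do not say whether each came from separate plants. The p-values therefore reflect the spread among these arrays alone, and the technical part of that spread was not tested. A watered OX5 group was not analysed here. Every difference between OX5 drought and Col-0 water therefore holds a line difference and a drought difference that cannot be told apart.

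Plants that run short of water make abscisic acid, a hormone that closes stomata and switches on protective genes. Among the products are dehydrins and late embryogenesis abundant (LEA) proteins, hydrophilic proteins that accumulate in drying cells. Growth genes such as those for expansins and other wall-loosening proteins are usually lowered, photosynthesis genes often follow, and long drought leads to leaf senescence with its own set of genes. CAMTA proteins are calmodulin-binding transcription activators, which link calcium signals to transcription, and members of the family are best known in Arabidopsis for their part in cold and defence gene expression.

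Values are MAS5 signals, in which each probe set has 1 linear intensity per array and every array is scaled to the same mean. Log2 differences are between group means of log2(signal + 16), given with their standard error (SE), and they understate changes of weak genes, whose size in log2 depends on the 16 added. A probe set is called where limma's two-sided test gave a Benjamini-Hochberg adjusted p under 0.05.

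The signals of the OX5 arrays differed from those of the other 12 before any gene was considered. Across probe sets their Spearman coefficients with those arrays were 0.805 to 0.865. The same coefficient was 0.903 for the pair of OX5 arrays and 0.896 to 0.960 for pairs of the remaining arrays. The lower quartile of the signal was 42.6 and 39.4 on the OX5 arrays and 21.9 to 29.2 on the others, so values in this range are low and near the noise of the method. The 25S rRNA control probe set read 4383 and 5961 on the OX5 arrays and 8274 to 16184 on the others. The part of these features in the results below was not tested. Among leaf markers, the mesophyll gene RCA (Rubisco activase) had signals of 39391, 36442 and 28324 with water in Col-0 and 39934 and 33840.2 in OX5 drought, so the tissue label held for this gene. Of the other marker lists, the trichome regulator TRY had 332, 431 and 434 in Col-0 water and 158 and 27.9 in OX5 drought, a log2 difference of -2.23 that was -3.23 without OX5 replicate 1 and -1.24 without OX5 replicate 2. The guard cell gene FMA and the root gene PYK10 did not pass the test, and no marker of vasculature, flowers, seeds or dividing cells was among the named genes. In RNA of whole leaves, fewer cells of a type and less RNA per cell cannot be told apart.

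CAMTA5 (AT4G16150), the gene the line is meant to overexpress, had signals of 402 and 290.4 in OX5 drought. In Col-0 water it had 115, 179 and 152, so both OX5 arrays lay above all 3. The log2 difference was 1.14 ± 0.25 (adjusted p = 0.00136, limma, as for all adjusted p-values here). Of the 6 other droughted arrays 5 also exceeded every watered array, with 232, 146 and 217 in Col-0 drought and 265, 284 and 306 in camta5 drought, against 191, 172 and 154 in camta5 water. A rise of CAMTA5 was in the set of camta5 drought changes used below by a narrow margin (log2 difference 0.68 ± 0.22, adjusted p = 0.0482), and in Col-0 drought against Col-0 water it did not pass (0.38 ± 0.22, adjusted p = 0.226), with overlapping arrays. Against Col-0 drought the OX5 difference was 0.76 ± 0.25 (adjusted p = 0.0198), and this call ended without OX5 replicate 1 (0.54, adjusted p = 0.17) or without Col-0 drought replicate 2 (0.57, adjusted p = 0.0776). Because OX5 replicate 2 lay inside the range of the camta5 drought arrays, the level alone did not separate the overexpressor from the mutant label, and OX5 below means the arrays so labelled. The sources used here do not say on which side of the camta5-a lesion the probes sit. The annotation lists this gene, CAMTA4 and CAMTA6 by locus number only, and their names are general knowledge. CAMTA4 (AT1G67310) had 479 and 621 in OX5 drought, below and above its range of 493 to 571 in Col-0 water. CAMTA6 (AT3G16940) had 687 and 695, below all of 1231, 997 and 1054 in Col-0 water, with a log2 difference of -0.64 ± 0.21 (adjusted p = 0.019). CAMTA6 rose in camta5 drought, so its rise was absent in OX5, and the call against Col-0 water ended without Col-0 water replicate 1 (adjusted p = 0.0632), OX5 replicate 1 (adjusted p = 0.0799) or OX5 replicate 2 (adjusted p = 0.0704).

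Most of the usual drought changes were present in OX5, and a smaller part was absent. The usual changes were taken from the camta5 line, since its 6 arrays are shared with neither side of the OX5 comparison. This line is the mutant of CAMTA5 itself, so drought changes that depend on the gene may be missing from the set. Col-0 drought against Col-0 water called more probe sets, 2441 higher and 1836 lower. Some members of the set, named below, were not called there. Usual below thus means called in camta5. Of 15646 probe sets tested, 1357 (8.67%) rose and 1190 (7.61%) fell between camta5 water and camta5 drought at an adjusted p under 0.05. A usual change was counted as present where OX5 drought differed from Col-0 water in the same direction at that threshold. It was counted as absent where it failed that test and OX5 drought was also called below Col-0 drought for a rise, or above it for a fall, and as not settled in the other cases, apart from 1 rise and 1 fall that were called in the opposite direction only. Of the 1357 rises, 805 (59.3%) were present, against 27.1% of all tested probe sets called higher in OX5 drought than in Col-0 water. Of the 1190 falls, 746 (62.7%) were present, against 25.9% of all probe sets called lower.

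Among the rises, 376 (27.7%) were absent, and among the falls 291 (24.5%). The rule for an absent rise was met by 24.8% of all tested probe sets and that for an absent fall by 21.5%. The absent shares of the whole set were thus near the background and do not set its changes apart from other genes. In 121 rises (8.92%) OX5 drought was called lower than Col-0 water, and in 96 falls (8.07%) it was called higher. These are smaller shares than the 25.9% of all probe sets called lower and the 27.1% called higher in the same comparison. Not settled were 175 rises and 152 falls. Restricting the set to camta5 changes of at least 2-fold left 494 rises, with 277 present (56.1%) and 162 absent (32.8%). It left 596 falls, with 342 present (57.4%) and 180 absent (30.2%). These absent shares were above 24.8% and 21.5%, but those backgrounds hold probe sets with changes of any size. No background of probe sets with changes of at least 2-fold was computed. The shares therefore do not show that larger drought changes were more often absent. The size of the set depended on the camta5 arrays. Leaving out 1 array gave 581 to 1510 rises and 545 to 1414 falls, and the set shrank by over 1.5 times in at least 1 direction without camta5 water replicate 1 (722 rises and 611 falls), 2 (997 and 711) or 3 (706 and 609) and without camta5 drought replicate 2 (581 and 545) or 3 (841 and 671). The share of rises present ranged between 49.0% and 64.1% and that of falls between 54.5% and 68.3%, and the share of falls called higher in OX5 reached 12.7% without camta5 drought replicate 3.

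The set moved by similar median amounts in the 3 lines. The median log2 difference over the 1357 rises was 0.87 for camta5 drought against camta5 water, 0.88 for Col-0 drought against Col-0 water and 0.84 for OX5 drought against Col-0 water. For the 1190 falls these medians were -1.0, -0.98 and -1.05. The camta5 medians describe the values that chose the set, and the Col-0 and OX5 differences share the Col-0 water arrays. Across all 15646 probe sets the median OX5 difference was 0.05. Col-0 drought against Col-0 water had 15.6% of probe sets higher and 11.7% lower, fewer than the OX5 comparison called. Directly against Col-0 drought, where 21.7% of all probe sets were higher and 25.0% lower in OX5, 304 of the rises (22.4%) were higher in OX5, 405 (29.8%) lower, and 648 (47.8%) passed in neither direction. Of the falls, 320 (26.9%) were higher in OX5 than in Col-0 drought, 365 (30.7%) lower and 505 (42.4%) neither. The camta5 drought response and the OX5 difference had a Pearson coefficient of 0.373 and a Spearman coefficient of 0.409 over the 15646 probe sets, a description across genes rather than across samples.

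**Figure D1:**
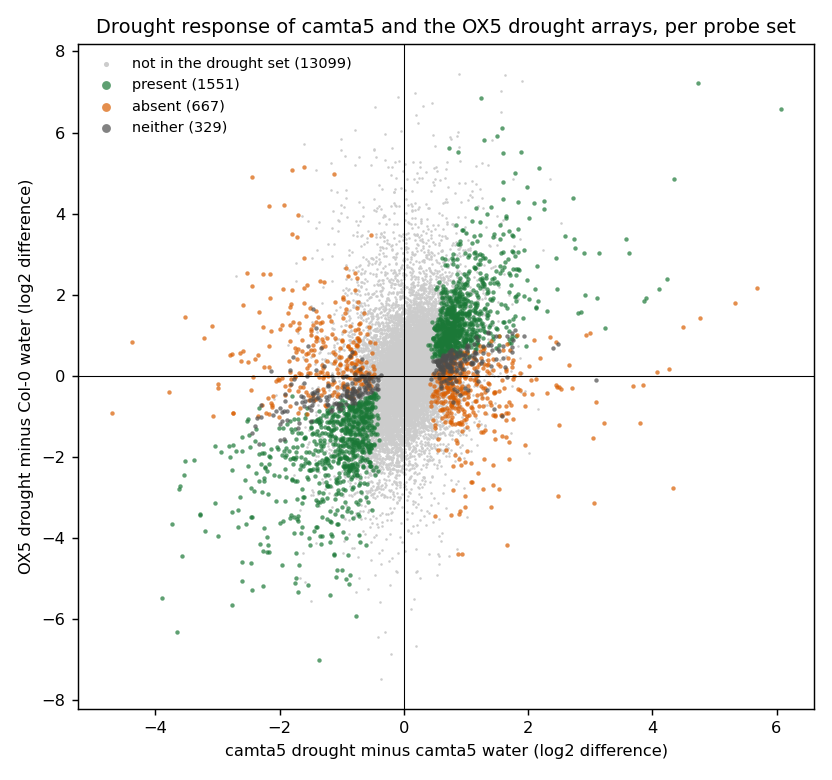
Each point is 1 of 15646 probe sets, with the log2 difference of camta5 drought minus camta5 water on the x axis and that of OX5 drought minus Col-0 water on the y axis. Green points are the usual drought changes present in OX5, orange points those absent, dark grey points the remainder of the set, and light grey points lie outside it. The present changes fill the upper right and lower left corners, and the absent ones lie on both sides of the horizontal zero line, across the range of camta5 differences.

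Several of the strongest drought rises were present in OX5. LTI30 (AT3G50970), a dehydrin gene, had signals of 40.3, 92.2 and 227 in Col-0 water and 1259 and 1191 in OX5 drought. The droughted Col-0 arrays had 449, 9475 and 1693 and the droughted camta5 arrays 1522, 1394 and 2413, so OX5 lay inside the span of the other drought arrays and above every watered Col-0 array. The log2 difference from Col-0 water was 3.45 ± 0.85 (adjusted p = 0.00347). MGL (AT1G64660), the gene of methionine gamma-lyase, which breaks down methionine, went from 614, 406 and 289 in Col-0 water to 3238 and 3869.7 in OX5 drought, a log2 difference of 3.04 ± 0.37 (adjusted p = 1.16e-05). Its drought levels of 2698 to 4699.5 in Col-0 and 1826 to 4997 in camta5 enclosed the OX5 values. The sugar transporter gene SWEET4 (AT3G28007) had 174, 212 and 207 in Col-0 water and 728 and 835 in OX5 drought (log2 difference 1.90 ± 0.35, adjusted p = 0.000343), with no overlap, and the droughted Col-0 arrays read 752, 2343 and 1865.

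LEA4-5 (AT5G06760), a LEA protein gene, was raised in OX5 by less than in Col-0 drought. It had 148, 209.9 and 101 in Col-0 water, 781 and 637 in OX5 drought and 1112, 8558 and 5158 in Col-0 drought. OX5 was thus above all watered and below all droughted Col-0 arrays. The log2 difference was 2.14 ± 0.77 from Col-0 water (adjusted p = 0.0298) and -2.35 ± 0.77 from Col-0 drought (adjusted p = 0.0214). Neither call was firm. The first ended without Col-0 water replicate 1 (adjusted p = 0.0613) or 3 (0.0835) and without either OX5 array (0.129 and 0.0823). The second ended without Col-0 drought replicate 2 (log2 -1.74, adjusted p = 0.0827) or 3 (0.0631) and without either OX5 array (0.0719 and 0.102), and without Col-0 drought replicate 1 the difference was -3.21, adjusted p = 0.00139. PYK10 (AT3G09260), a beta-glucosidase gene best known from roots, was weak throughout, with 13.8, 29.0 and 2.85 in Col-0 water and 81.6, 88.5 and 61.1 in Col-0 drought. OX5 drought gave 9.18 and 116, so 1 array lay with the watered Col-0 arrays and the other above the droughted ones. Its log2 difference of 0.98 ± 0.65 did not pass (adjusted p = 0.223) except without OX5 replicate 1 (2.17, adjusted p = 0.0154).

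Of the 10 strongest named rises in camta5, the 5 counted as absent in OX5 included well-known drought genes. SAG29 (AT5G13170), a sugar transporter gene of senescing leaves also known as SWEET15, had the largest camta5 rise with a symbol. It went from 149.9, 139 and 124 to 2599.9, 4121 and 2715 in camta5 and from 144, 309 and 151 to 4228, 10007 and 5448 in Col-0. In OX5 drought it read 32.0 and 3.27, below every other array of the series. The log2 difference was -2.76 ± 0.41 from Col-0 water (adjusted p = 6.82e-05) and -7.66 ± 0.41 from Col-0 drought (adjusted p = 5.08e-09). Without OX5 replicate 1 these were -3.42, adjusted p = 7.77e-05, and -8.32, adjusted p = 5.4e-08, and without OX5 replicate 2 they were -2.10, adjusted p = 0.00233, and -7.00, adjusted p = 2.33e-07.

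DI21 (AT4G15910), named for its induction by drought, did not differ from the watered level in OX5 by the test. Its signals were 106, 131 and 93.0 in Col-0 water, 1591, 18443 and 4478 in Col-0 drought, 1648, 3416 and 1653 in camta5 drought and 102 and 149.5 in OX5 drought. The OX5 values overlapped those of Col-0 water, with a log2 difference of 0.16 ± 0.71 (adjusted p = 0.863), and lay -5.19 on the log2 scale from Col-0 drought (adjusted p = 3.73e-05; -6.02 without Col-0 drought replicate 1 and -4.26 without replicate 2). HIS1-3 (AT2G18050), the gene of a drought-inducible linker histone, had 572, 428 and 647 in Col-0 water, 5515, 7168 and 7308 in Col-0 drought and 378 and 311 in OX5 drought. No droughted Col-0 or camta5 array read below 3338, and both OX5 arrays were under the lowest watered Col-0 array. The difference from Col-0 water of -0.64 ± 0.28 did not pass (adjusted p = 0.0732). It passed without Col-0 water replicate 2 (-0.80, adjusted p = 0.045), camta5 drought replicate 2 (0.0274) or camta5 drought replicate 3 (0.0456). It also passed with the 5 arrays alone (0.0443), quantile normalization (0.0457) or each array centred on its median (0.0248). The difference from Col-0 drought was -4.21 ± 0.28 (adjusted p = 4.44e-08).

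SHN3 (AT5G25390), which encodes a transcription factor that activates cuticular wax synthesis, had 87.3, 93.9 and 82.1 in camta5 drought and 169, 231 and 277 in Col-0 drought. In OX5 it stayed near the floor at 11.2 and 13.9, inside the Col-0 water range of 9.51 to 47.5. ZW9 (AT1G58270) had 552 and 514 in OX5 against 542, 775 and 722 in Col-0 water and 1662, 3228 and 2909 in Col-0 drought, and the difference from Col-0 drought was -2.20 ± 0.24 (adjusted p = 4.8e-06). CPUORF47 (AT5G03190), a conserved upstream reading frame, had 246 and 264 in OX5, within the watered Col-0 range of 221 to 348, while Col-0 drought had 815, 901 and 1284. For these 3 genes the OX5 and Col-0 water values could not be separated, and the drought levels of both other lines lay above them.

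**Figure D2:**
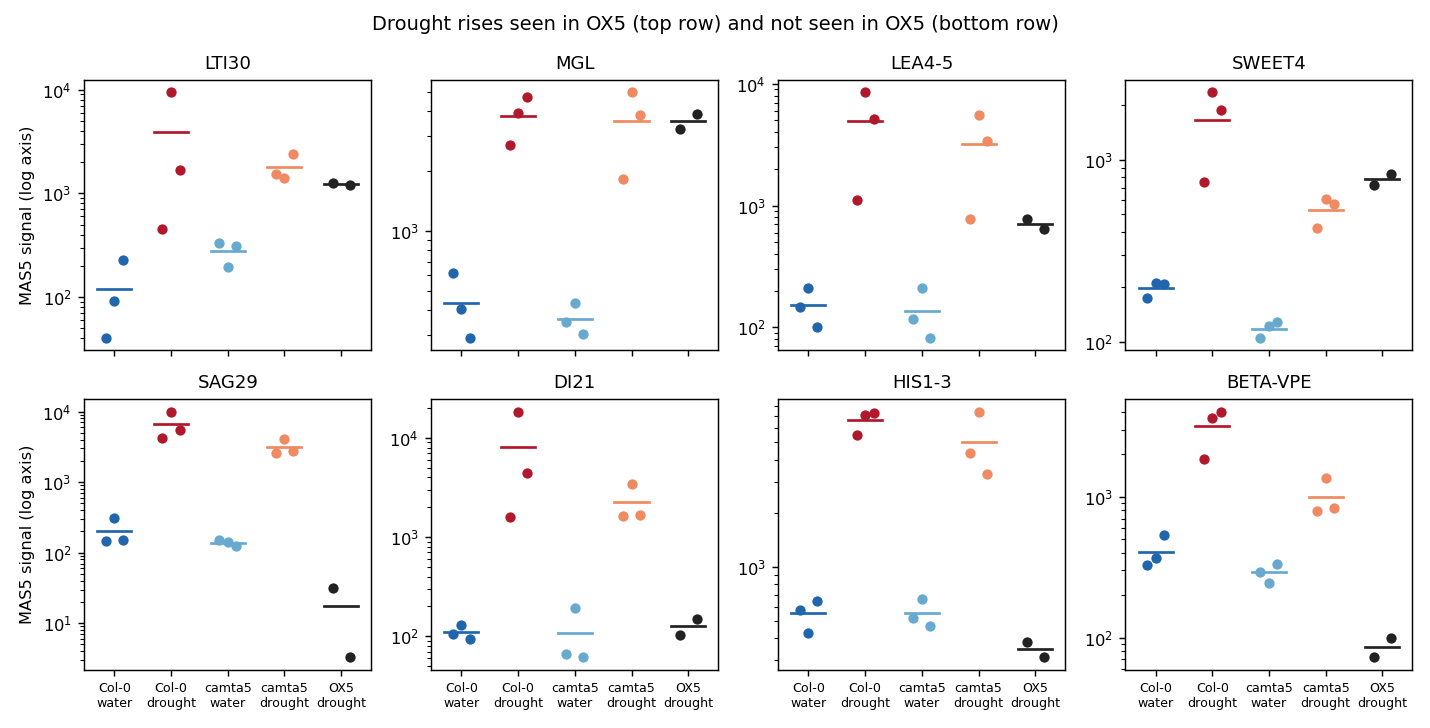
MAS5 signals on a log axis for 8 genes that rose in camta5 drought, with 1 point per array and a bar at the group mean. In the top row the OX5 points (black) lie above all watered Col-0 points, and in the bottom row they lie among them (DI21) or below them.

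In 120 of the absent rises OX5 drought was called lower than Col-0 water. BETA-VPE (AT1G62710), the gene of a vacuolar processing enzyme, a protease that matures seed storage proteins, had 327, 365 and 533 in Col-0 water, 791, 1362 and 832 in camta5 drought and 72.2 and 99.3 in OX5 drought. Both OX5 arrays were below every other array (log2 difference from Col-0 water -2.04 ± 0.33, adjusted p = 0.000115). The floral repressor gene SNZ (AT2G39250) had 159, 161 and 143 in Col-0 water and 4.88 and 6.77 in OX5 drought, which is at the floor. Its log2 difference of -2.96 ± 0.35 (adjusted p = 7.28e-06) therefore depends in size on the number added before log2, being -4.52 with an offset of 1 and -1.64 with 64. AFR (AT2G24540), an F-box gene of far-red light signalling, had 4456, 2648 and 2829.6 in camta5 water and 3710.3, 7764 and 8106 in camta5 drought, and read 107 and 173 in OX5 drought against 3555, 3050.5 and 2915 in Col-0 water. That log2 difference of -4.38 ± 0.34 (adjusted p = 1.54e-07) was among the 10 largest decreases with a symbol in the whole comparison, as was that of GIS.

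GIS (AT3G58070), a zinc finger gene of trichome formation, had 569, 662 and 672 in Col-0 water, 1088, 1151 and 774 in camta5 drought and 28.9 and 5.7 in OX5 drought (log2 difference -4.38 ± 0.29, adjusted p = 3.91e-08). The trichome marker TRY, given above, was lower too, and the part of trichome cells in the GIS difference was not tested. The decreases of the other 3 genes were smaller and less firm. Of these, CYP78A9 and CKS were called higher in Col-0 drought than in Col-0 water, and PCME was not (log2 0.63 ± 0.27, adjusted p = 0.0973). CYP78A9 (AT3G61880), a cytochrome P450 gene of organ growth, had 124 and 120.2 against 235, 231 and 179 in Col-0 water (log2 -0.73 ± 0.25, adjusted p = 0.0219), and the call ended without Col-0 water replicate 1 (0.0614) or 2 (0.0592) or either OX5 array (0.0672 and 0.0782). PCME (AT5G15860), a prenylcysteine methylesterase gene, had 158 and 133 against 255, 334 and 295 (log2 -0.94 ± 0.30, adjusted p = 0.0166), a call that ended without Col-0 water replicate 2 (0.0526) or OX5 replicate 2 (0.0934). CKS (AT1G53000), whose enzyme activates a sugar of pectin, had 322 and 185 against 357, 531 and 440.1 (log2 -0.80 ± 0.28, adjusted p = 0.0273). Its call ended without Col-0 water replicate 2 (0.0925) or 3 (0.0555) and without OX5 replicate 2 (-0.42, adjusted p = 0.305).

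The strongest drought falls were mostly present in OX5, with 9 of the 10 largest named ones called lower. THI2.2 (AT5G36910), a thionin gene, fell from 1042, 1295 and 1193 to 130.2, 61.7 and 46.7 in camta5, and OX5 drought read 89.8 and 25.7 against 737, 1071 and 679 in Col-0 water. The groups did not overlap, and the log2 difference was -3.64 ± 0.43 (adjusted p = 8.88e-06), or -4.31 without OX5 replicate 1 and -2.97 without OX5 replicate 2. XTH19 (AT4G30290), which encodes a xyloglucan endotransglucosylase that remodels the growing wall, read 75.4 and 90.06 in OX5 drought against 285, 952 and 925 in Col-0 water (log2 -2.72 ± 0.44, adjusted p = 0.000142). ARR15 (AT1G74890), a cytokinin response regulator gene, had 13.3 and 20.9 in OX5 drought against 87.9, 276 and 378 in Col-0 water, a log2 difference of -2.80 ± 0.49 (adjusted p = 0.000244). The microtubule-associated gene SP1L4 (AT5G15600) had 86.6 and 46.1 against 743, 834 and 371 (log2 -2.98 ± 0.53, adjusted p = 0.000267). No droughted array of the series exceeded 139.3 for any of these 4 genes.

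CHIL (AT5G05270), a chalcone isomerase-like gene of flavonoid synthesis, had 71.1 and 140.2 in OX5 drought and 708, 976 and 474 in Col-0 water (log2 -2.60 ± 0.68, adjusted p = 0.00519), and that call ended without OX5 replicate 1 (-2.18, adjusted p = 0.0606). In Col-0 drought against Col-0 water CHIL was not called lower (log2 -1.31 ± 0.61, adjusted p = 0.127). Its droughted Col-0 arrays read 200, 93.7 and 964, the last inside the watered range. MSRB6 (AT4G04840), a methionine sulfoxide reductase gene, fell only in part. OX5 drought read 561 and 537, between 1036, 1326 and 1139 in Col-0 water and 99.8, 65.9 and 129 in Col-0 drought. Its log2 difference was -1.06 ± 0.38 from Col-0 water (adjusted p = 0.0279) and 2.34 ± 0.38 from Col-0 drought (adjusted p = 0.000153). The first of these calls ended without Col-0 water replicate 2 (0.078) or 3 (0.0528) or either OX5 array (0.0901 and 0.104). Of the plastid-encoded genes among these falls, petG, psbB and petN are described with their genome below.

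SWEET2, ATPMEPCRB and EXPA16 were absent falls that were also called lower in Col-0 drought than in Col-0 water. SWEET2 (AT3G14770), a vacuolar sugar transporter gene, had 1197, 1679 and 1127 in Col-0 water, 242, 109 and 111 in Col-0 drought, 260.3, 334 and 398 in camta5 drought and 1417 and 1653 in OX5 drought. OX5 overlapped Col-0 water (log2 difference 0.22 ± 0.30, adjusted p = 0.564) and was 3.27 above Col-0 drought on the log2 scale (adjusted p = 9.07e-07). ATPMEPCRB (AT4G02330), a pectin methylesterase gene, read 313 and 259.6 in OX5 against 274, 551 and 712 in Col-0 water and 61.9, 44.1 and 68.5 in Col-0 drought. The difference from Col-0 water of -0.71 ± 0.42 did not pass (adjusted p = 0.174) but did without Col-0 water replicate 1 (-1.09, adjusted p = 0.0426). EXPA16 (AT3G55500), an expansin gene, was at 902 and 570.0 in OX5 drought, above all of 307, 323 and 281 in Col-0 water, while Col-0 drought had 36.5, 5.9 and 4.69. Its difference from Col-0 water of 1.2 ± 0.52 missed the threshold (adjusted p = 0.0663). It passed without Col-0 drought replicate 1 (0.0432), camta5 drought replicate 2 (0.0138) or camta5 drought replicate 3 (0.0493). It also passed with the 5 arrays alone (0.00195), an offset of 64 (0.00512) or camta5 water replicate 1 counted as Col-0 (0.0496).

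In 95 of the absent falls OX5 drought was called higher than Col-0 water. IAA29 (AT4G32280), a gene of the Aux/IAA repressors of auxin signalling, had 78.4, 181 and 176 in Col-0 water, 49.6, 23.1 and 38.0 in camta5 drought and 562 and 562 in OX5 drought (log2 difference from Col-0 water 1.92 ± 0.46, adjusted p = 0.00277). PDF1.2 (AT5G44420), a plant defensin gene used as a marker of jasmonate and ethylene signalling, had 87.4, 853 and 944 in Col-0 water, 35.5, 56.4 and 24.5 in Col-0 drought and 2541 and 2465 in OX5 drought. Its log2 difference from Col-0 water was 2.51 ± 0.69 (adjusted p = 0.00703), and 1.46 without Col-0 water replicate 1. BGLU44 (AT3G18080), a beta-glucosidase gene, read 4005 and 3478 in OX5 drought against 751, 1214 and 1072 in Col-0 water (log2 1.89 ± 0.29, adjusted p = 8.76e-05). These 3 genes were higher on both OX5 arrays than on all of the other 12. The clock gene GI (AT1G22770) behaved alike, with 1407 and 1583 in OX5 drought against 271, 263 and 266 in Col-0 water and 137, 83.5 and 118 in Col-0 drought (log2 2.42 ± 0.21 from Col-0 water, adjusted p = 4.57e-07).

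The calls of the remaining genes of that kind were less firm. In Col-0 drought against Col-0 water, GH3.17 (log2 -0.51 ± 0.53, adjusted p = 0.518) and ROXY2 (-0.94 ± 0.46, adjusted p = 0.139) were not called lower. COR15B, TMT1 and CYP71B22 were called lower there. COR15B (AT2G42530), which encodes a cold-regulated chloroplast protein, had 1683 and 1459 against 724, 671 and 1301 in Col-0 water (log2 0.86 ± 0.29, adjusted p = 0.0228). This call ended without Col-0 water replicate 1 (0.0753) or 2 (0.0869) or either OX5 array (0.123 and 0.0534). GH3.17 (AT1G28130), an enzyme gene that conjugates auxin to an amino acid, had 158 and 61.9 against 2.95, 2.64 and 39.5 (log2 2.11 ± 0.60, adjusted p = 0.00817), and the call ended without OX5 replicate 1 (1.53, adjusted p = 0.126). TMT1 (AT1G20840), a sugar transporter gene of the vacuole membrane, had 997 and 1172 against 710.1, 523 and 540.2 (log2 0.87 ± 0.29, adjusted p = 0.0206), a call lost without Col-0 water replicate 2 (0.0615) or 3 (0.0555) or OX5 replicate 2 (0.115). The P450 gene CYP71B22 (AT3G26200) had 316 and 189 against 115, 65.9 and 131 (log2 1.17 ± 0.42, adjusted p = 0.0304) and lost its call without Col-0 water replicate 2 (0.108) or OX5 replicate 1 (0.224). The glutaredoxin gene ROXY2 (AT5G14070) had 75.04 and 137 against 41.5, 15.7 and 26.1 (log2 1.47 ± 0.51, adjusted p = 0.0247) and lost it without Col-0 water replicate 2 (0.0757) or 3 (0.0504) or OX5 replicate 2 (0.182).

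**Figure D3:**
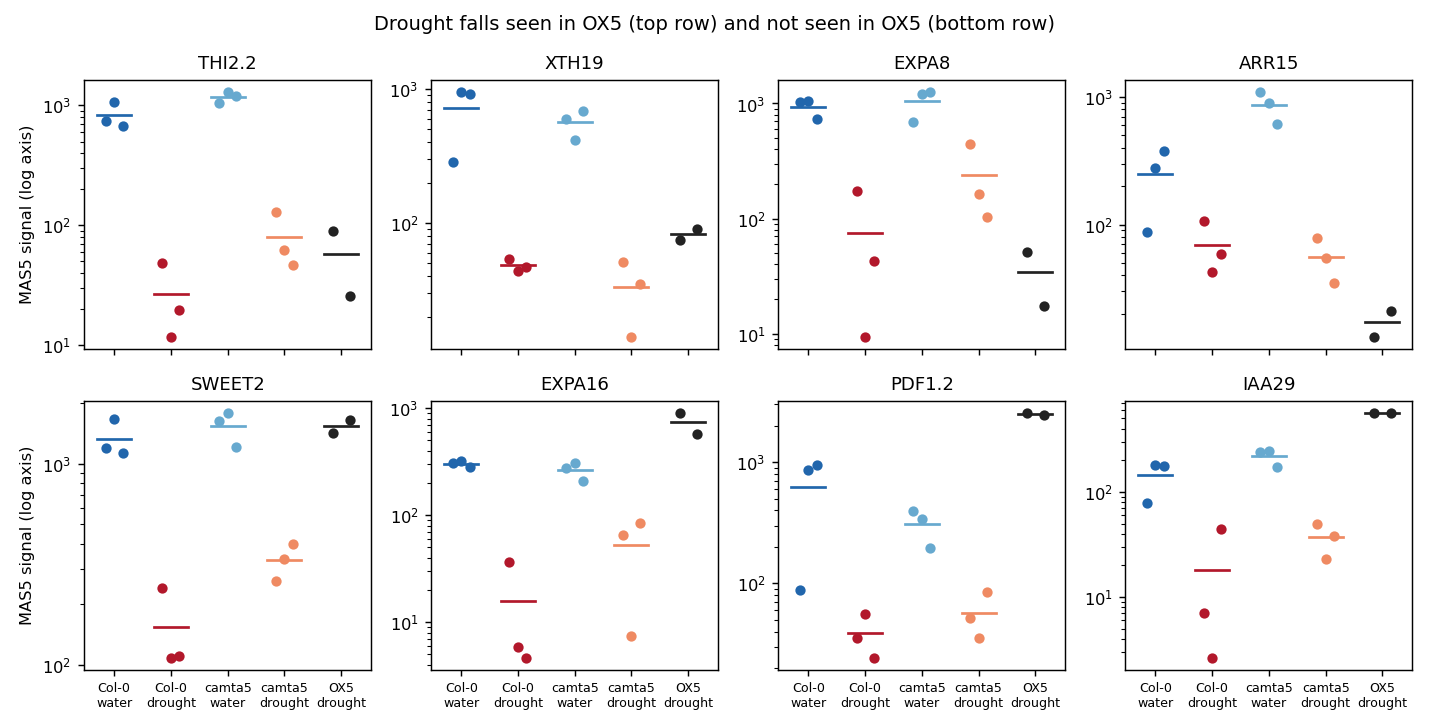
MAS5 signals on a log axis for 8 genes that fell in camta5 drought, with 1 point per array and a bar at the group mean. In the top row the OX5 points (black) lie below all watered Col-0 points, and in the bottom row they lie at or above the watered level.

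The counts of the gene lists that follow stand beside 27.1% of all probe sets called higher and 25.9% called lower in OX5 drought than in Col-0 water. The list of dehydration-protection genes had 10 measured members, of which 5 were higher and 0 lower in OX5 drought than in Col-0 water, with a median log2 difference of 1.36 against 0.05 over all probe sets. Without OX5 replicate 1, 2 of 9 tested members were called higher and without OX5 replicate 2, 4 of 10. Besides LTI30, LEA4-5 and COR15B, the called members were COR47 and AtLEA4-1. COR47 (AT1G20440), a dehydrin gene, had 27337 and 23204 in OX5 drought, above every other array, against 4730.2, 7338 and 9241 in Col-0 water (log2 1.88 ± 0.33, adjusted p = 0.000289). It differed little between Col-0 drought and water (-0.07 ± 0.30). AtLEA4-1 (AT1G32560) had 487 and 273 against 78.3, 108 and 83.9 (log2 1.86 ± 0.56, adjusted p = 0.0123), and its call ended without OX5 replicate 1 (1.46, adjusted p = 0.117). COR15A, LEA18, HIS1-3, DI21 and DI19 did not pass, although LEA18 was called without OX5 replicate 2 (3.22, adjusted p = 0.0205). In camta5 5 members rose and 1 fell, and of these 6 usual changes 3 were present in OX5 (LTI30, LEA4-5 and AtLEA4-1) and 3 absent (DI21, HIS1-3 and COR15B).

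Of 7 measured senescence genes 3 were higher and 3 lower in OX5 drought than in Col-0 water (median log2 difference 0.54), where 27.1% and 25.9% of all probe sets were called. GAMMA-VPE (AT4G32940), a vacuolar processing enzyme gene of vegetative tissue, had 6828 and 7844 in OX5 drought against 2623, 1182 and 1225 in Col-0 water (log2 2.22 ± 0.37, adjusted p = 0.000161). WRKY6 (AT1G62300), a transcription factor gene of senescence and defence, had 933 and 696 against 188, 244 and 392 (log2 1.56 ± 0.43, adjusted p = 0.00676), and the call ended without OX5 replicate 1 (1.35, adjusted p = 0.0622). The senescence regulator gene WRKY53 was lower (log2 -1.08 ± 0.37, adjusted p = 0.0234), a call that ended without Col-0 water replicate 3 (0.0995) or either OX5 array (0.0601 and 0.124). SAG29 was lower, as was NOL (AT5G04900), a chlorophyll b reductase gene, with 517 and 617 against 1117, 938 and 1109.9 (log2 -0.88 ± 0.18, adjusted p = 0.00081). In camta5 drought the list had 2 rises, MGL and SAG29, of which MGL was present in OX5 and SAG29 was not.

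Of 5 measured genes of flavonoid and anthocyanin synthesis, 3 were called higher in Col-0 drought than in Col-0 water. None of the 5 was higher in OX5 drought than in Col-0 water and 2 were lower, with a median of -1.39. DFR (AT5G42800), the dihydroflavonol reductase gene, had 352, 606 and 5963 in Col-0 drought, 49.7, 45.4 and 47.5 in camta5 drought and 4.74 and 11.7 in OX5 drought, against 2.42, 5.95 and 5.2 in Col-0 water. Only the droughted Col-0 arrays were high, and by very different amounts. The OX5 values were at the floor with the watered ones (log2 difference 0.23 ± 0.81), and the difference from Col-0 drought was -5.54 ± 0.81 (adjusted p = 6.83e-05; -6.33 without Col-0 drought replicate 1 and -4.32 without replicate 3). UGT78D2 (AT5G17050), a flavonoid glucosyltransferase gene, was at 147 and 101 in OX5 drought, below every other array, against 2769, 2637 and 1716 in Col-0 water (log2 -4.09 ± 0.27, adjusted p = 3.79e-08). The other glycosyltransferase genes of the list, UF3GT and AT4G14090, had log2 differences of -0.16 ± 0.73 and -1.39 ± 0.75 that did not pass; that of AT4G14090 passed without Col-0 drought replicate 3 (adjusted p = 0.0463). A rise of this pathway was not among the usual drought changes by the camta5 arrays, where only CHIL was called, and lower.

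Of 16 tested cell wall loosening genes, 3 were higher and 6 lower in OX5 drought than in Col-0 water (median log2 difference -0.16; 27.1% and 25.9% of all probe sets), against 0 higher and 6 lower in camta5 drought. EXPA8 (AT2G40610) went down to 51.2 and 17.39 in OX5 drought from 1031, 1053 and 735 in Col-0 water (log2 -4.32 ± 0.67, adjusted p = 9.11e-05). XTH32 (AT2G36870) had 141 and 99.98 against 1106, 2212 and 1682 (log2 -3.58 ± 0.38, adjusted p = 3.11e-06). The expansin-like gene EXLA1 (AT3G45970) was high, with 4882 and 4708 against 158, 437 and 543 and 132, 917 and 176 in Col-0 drought (log2 3.77 ± 0.67 from Col-0 water, adjusted p = 0.000273). EXPA15 (AT2G03090), not lowered in Col-0 or camta5 drought at the threshold, had 20.1 and 17.7 against 200.2, 256 and 249.8 (log2 -2.84 ± 0.41, adjusted p = 5.38e-05). Of the 6 usual falls of the list, 4 were present, EXPA16 was absent and EXPB3 was not settled. The EXPA4 (log2 -1.30 ± 0.47), EXPB1 (-1.76 ± 0.62) and EXGT-A3 (0.65 ± 0.23) calls each ended without 1 of at least 3 single arrays, OX5 replicate 2 (adjusted p = 0.0815, 0.197 and 0.109) being among them. Without OX5 replicate 1 the list had 1 higher and 5 lower, and without OX5 replicate 2 it had 1 higher and 4 lower.

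Of 10 tested SWEET sugar transporter genes, 1 was higher and 5 were lower in OX5 drought than in Col-0 water (median log2 difference -0.84). SWEET13 (AT5G50800) had 35.02 and 44.4 in OX5 drought and 762, 654 and 658 in Col-0 water (log2 -3.67 ± 0.26, adjusted p = 6.72e-08), and it was at 479 to 749.8 in Col-0 drought. SWEET11 (AT3G48740), a phloem loading transporter, had 6928 and 6340.0 against 18299, 16319.9 and 14701 (log2 -1.30 ± 0.20, adjusted p = 7.07e-05). SWEET17 (AT4G15920), a vacuolar fructose transporter, had 321 and 144 against 419, 854 and 638 (log2 -1.44 ± 0.34, adjusted p = 0.00279), and its call ended without OX5 replicate 2 (-0.90, adjusted p = 0.0705). Drought in camta5 raised SWEET4 and SAG29 and lowered SWEET2, and of these 3 changes the SWEET4 rise was the one present in OX5.

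Among nuclear photosynthesis genes, 2 of 13 were higher and 4 lower (median log2 difference -0.33), counts that do not set the list apart beside the 27.1% and 25.9% of all probe sets. SBPASE (AT3G55800), the Calvin cycle sedoheptulose-bisphosphatase gene, had 4025 and 3029 in OX5 drought against 21465, 18902 and 18595 in Col-0 water and 16829.9, 12024 and 14605 in Col-0 drought (log2 -2.48 ± 0.17 from Col-0 water, adjusted p = 4.34e-08). PRK (AT1G32060), the gene of phosphoribulokinase of the same cycle, had 8571 and 7368 against 26948, 20044 and 20264 (log2 -1.48 ± 0.19, adjusted p = 1.36e-05). The light-harvesting gene LHCB4.3 (AT2G40100) was low as well, at 468 and 395 against 2553, 3453 and 4331 (log2 -2.92 ± 0.48, adjusted p = 0.000158). PORB (AT4G27440), a protochlorophyllide reductase gene of chlorophyll synthesis, was high in OX5, with 3546 and 3928 against 1036, 1047 and 927 (log2 1.88 ± 0.38, adjusted p = 0.000832). Of the 6 usual falls of this list, SBPASE, PRK and ATPC1 were present, while PSBY and CHLM were absent and PSAN was not settled. CHLM was close to both thresholds. Its difference from Col-0 water (log2 -0.54 ± 0.23, adjusted p = 0.0566) was called without Col-0 drought replicate 1 (0.0232) or 2 (0.0148), with the 5 arrays alone (0.017) and with 3 other settings, and its call against Col-0 drought (log2 0.71 ± 0.23, adjusted p = 0.0175) ended without Col-0 drought replicate 2 (0.0596) or OX5 replicate 1 (0.125). The ATPC1 call (log2 -0.54 ± 0.16, adjusted p = 0.0105) ended without OX5 replicate 2 (adjusted p = 0.0575). PSBY (AT1G67740), a photosystem II subunit gene, had 18743 and 17909 in OX5 drought, below all of 20678, 24511 and 19184 in Col-0 water by less than the test could call, and above 11258, 5597 and 9153 in Col-0 drought.

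Cytokinin genes had 0 members higher and 2 of 4 lower, with a median of -0.72. Besides ARR15 the lower member was UGT76C1 (AT5G05870), a cytokinin glucosyltransferase gene, with 247 and 103 against 358, 310.3 and 298 (log2 -0.93 ± 0.29, adjusted p = 0.0154), and its call ended without OX5 replicate 2 (-0.36, adjusted p = 0.304). Of 3 usual falls in the list, that of ARR15 was present, that of UGT76C2 absent and that of RR16 not settled. In Col-0 drought against Col-0 water, ARR15 was the only member of the list called lower. The UGT76C2 count rests on its difference from Col-0 drought (log2 1.15 ± 0.35, adjusted p = 0.0141), a call that ended without Col-0 drought replicate 2 (0.0515) or OX5 replicate 1 (0.118) and with camta5 water replicate 1 counted as Col-0 (0.0587). In the list of defence and jasmonate genes 3 of 5 were higher and 1 lower (median 2.33), and of its 2 usual falls THI2.2 was present and PDF1.2 absent. GRX480 (AT1G28480), a glutaredoxin gene of salicylate and jasmonate cross-talk, had 1911 and 1792 in OX5 drought against 89.9, 245 and 384 in Col-0 water (log2 3.07 ± 0.59, adjusted p = 0.000535). PDF1.2b (AT2G26020), a near copy of PDF1.2 whose probe set may share signal with it, had 2532 and 2008 against 135, 722 and 805 (log2 2.33 ± 0.87, adjusted p = 0.0356). That call ended without Col-0 water replicate 1 (1.55, adjusted p = 0.151) or either OX5 array (0.145 and 0.0923). The zinc finger stress gene STZ (AT1G27730) was lower, at 2378 and 2519.8 against 8338, 10892 and 5921 (log2 -1.73 ± 0.34, adjusted p = 0.000616). Both OX5 values lay below the 2769.5 to 4549 of Col-0 drought and inside the 1254 to 2549 of camta5 drought. No member of the lists for abscisic acid, osmolytes, aquaporins, heat shock or antioxidant genes was named on the array by the annotation used here, so whether those drought changes were present is not reported.

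**Figure D4:**
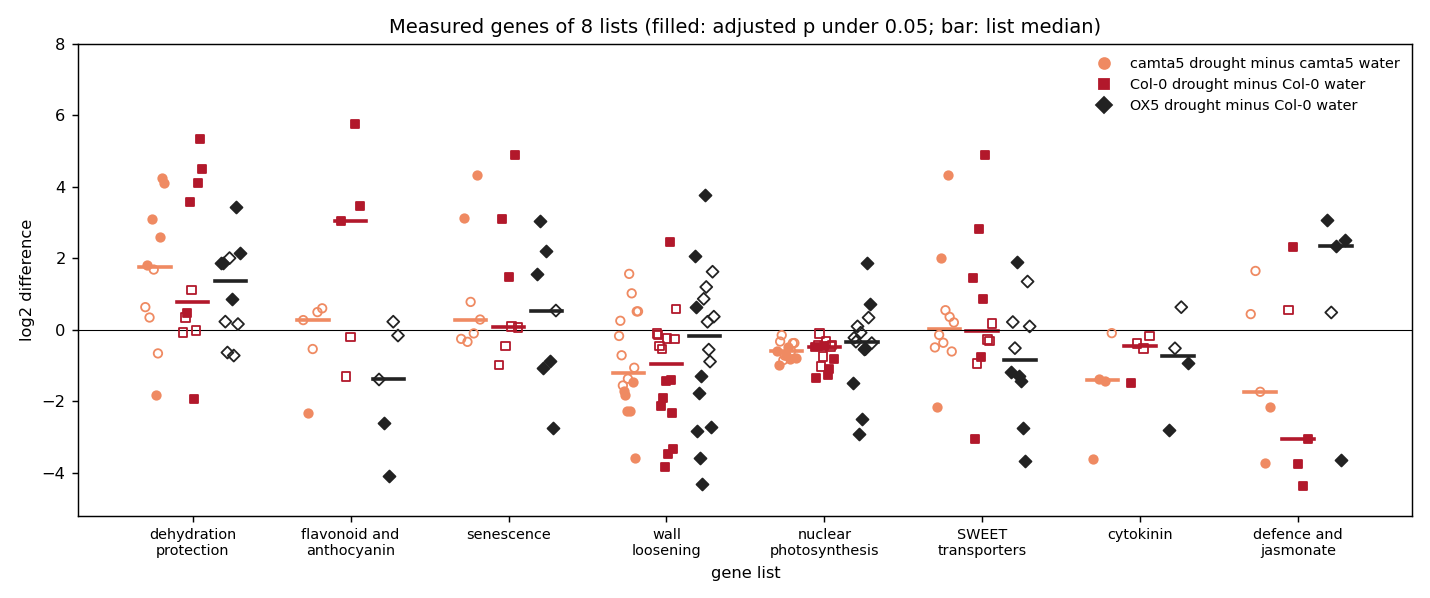
Log2 differences of the measured genes of 8 lists for camta5 drought minus camta5 water (orange circles), Col-0 drought minus Col-0 water (red squares) and OX5 drought minus Col-0 water (black diamonds). Filled symbols passed an adjusted p under 0.05 and horizontal bars mark list medians. The OX5 median lies above 0 for dehydration protection, senescence, and defence and jasmonate genes. It lies below 0 for anthocyanin, wall loosening, SWEET, nuclear photosynthesis and cytokinin genes.

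Transcripts of the plastid genome were lower in OX5 drought than in Col-0 water almost throughout. Of 69 measured genes 58 were called lower and 2 higher, with a median log2 difference of -2.11, and the number lower was 52 without OX5 replicate 1 and 53 without OX5 replicate 2. In the camta5 drought comparison 16 fell and 1 rose, and the 16 falls were all present in OX5. For Col-0 drought 39 fell, with a median of -0.94, and against Col-0 drought OX5 was lower for 34 genes and higher for 2 (median -1.02). Replicate 1 of camta5 drought was near the watered level for several of these genes. psbB, the gene of a core antenna protein of photosystem II, had 32982, 19774 and 18502 in camta5 water and 14193, 2218 and 2287 in camta5 drought, so camta5 drought replicate 1 lay far above replicates 2 and 3. OX5 drought had 742 and 589.8 against 22244, 13318 and 15387 in Col-0 water, a log2 difference of -4.61 ± 0.61 (adjusted p = 2.22e-05). The nuclear-encoded 25S rRNA control was lower on the OX5 arrays as well, as given above, and the part of RNA composition in the plastid values was not tested.

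Genes of several plastid complexes had the lowest values. petL, a cytochrome b6f subunit gene, had 155 and 105 in OX5 drought, 9314, 1061 and 1165 in camta5 drought and 5610.0, 7106 and 7484 in Col-0 water (log2 difference from Col-0 water -5.54 ± 0.64, adjusted p = 6.74e-06). ycf4, which assists photosystem I assembly, had 299 and 221 against 13534, 9052 and 10724 (log2 -5.33 ± 0.55, adjusted p = 2.19e-06), and atpF of the ATP synthase had 457 and 353 against 17409, 12959 and 14348 (log2 -5.15 ± 0.52, adjusted p = 2.09e-06). For petG and petN, both of the cytochrome b6f complex, the log2 differences were -5.05 ± 0.87 and -2.85 ± 0.38, and that of ndhE, of the NADH dehydrogenase-like complex, was -4.98 ± 0.63. The Rubisco large subunit gene rbcL had 2958 and 3451 in OX5 drought, 8821, 5397 and 7319.9 in Col-0 drought and 20438, 14771 and 14852 in Col-0 water (log2 -2.36 ± 0.22 from Col-0 water, adjusted p = 1.1e-06). For psbA, which encodes the D1 protein of photosystem II, OX5 drought had 2687 and 3451 against 27044, 17099.6 and 15422 (log2 -2.65 ± 0.23, adjusted p = 4.57e-07).

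Some of these transcripts were low in OX5 beyond the drought level of the other lines. rpoC1, of the plastid RNA polymerase, had 6445, 4902 and 4897 in Col-0 drought, 11552, 5971 and 5998 in camta5 drought and 663 and 319.7 in OX5 drought. Its difference from Col-0 drought was -3.50 ± 0.29 (adjusted p = 3.89e-07), beside -0.80 ± 0.26 between Col-0 drought and water. psaB was at 35501 and 32001 in OX5 drought and 29396 to 43138 in Col-0 water, among the brightest probe sets, and did not pass (log2 -0.07 ± 0.16, adjusted p = 0.722), but was called lower with quantile normalization (-0.44, adjusted p = 0.0051). The 2 called higher were atpB (54332 and 46442 against 35949, 37231 and 29184, log2 0.57 ± 0.18, adjusted p = 0.0143) and ndhI (log2 0.41 ± 0.15, adjusted p = 0.0367). Neither call held with quantile normalization (log2 0.14 and 0.05) or with each array centred on its median (adjusted p = 0.0561 and 0.199). For atpB it was lost, too, without Col-0 water replicate 3 (0.0544) or OX5 replicate 1 (0.108), and for ndhI without Col-0 water replicate 1 (0.0741) or 3 (0.0916) or either OX5 array (0.124 and 0.0822). rps14, a ribosomal protein gene, was the usual rise of this genome, although it was not called higher in Col-0 drought than in Col-0 water. The rps14 rise was absent: OX5 drought had 96.0 and 121 against 312, 135 and 167 in Col-0 water and 264, 278 and 314 in Col-0 drought. Its OX5 decrease from Col-0 water (log2 -0.75 ± 0.28, adjusted p = 0.0336) ended without Col-0 water replicate 1 (-0.42, adjusted p = 0.138) or OX5 replicate 1 (0.171).

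**Figure D5:**
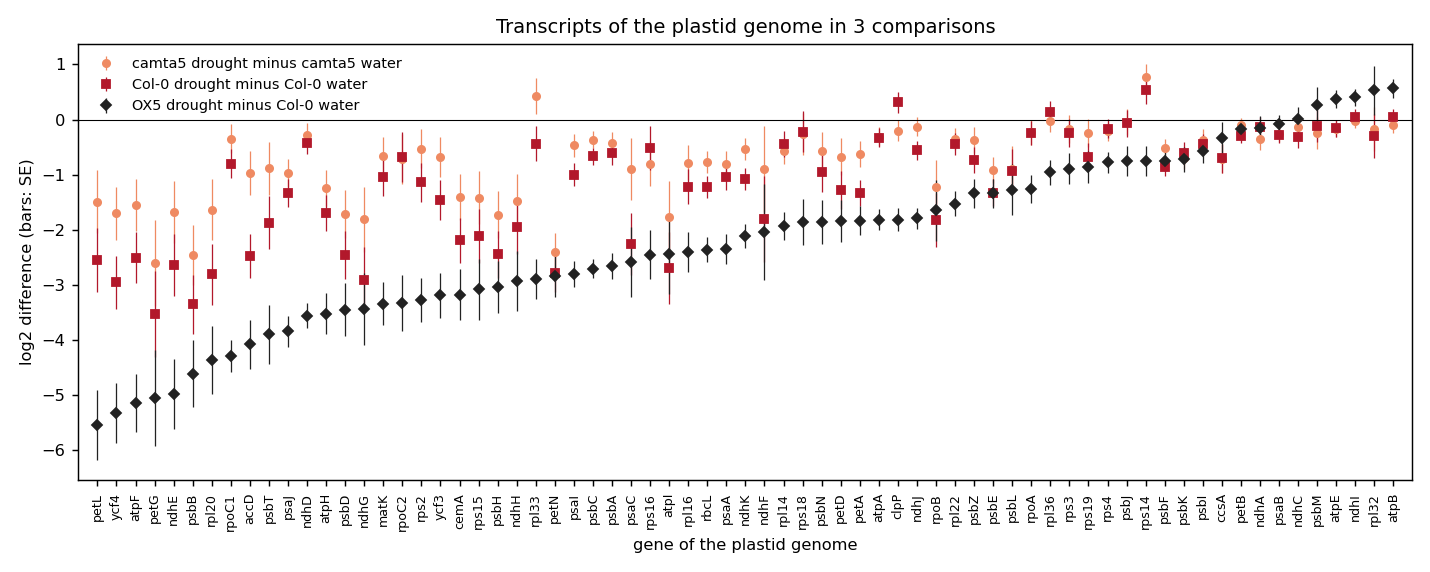
Log2 differences, with SE bars, of 69 genes of the plastid genome, ordered by the OX5 difference, for camta5 drought minus camta5 water (orange circles), Col-0 drought minus Col-0 water (red squares) and OX5 drought minus Col-0 water (black diamonds). The OX5 values run from -5.54 for petL to 0.57 for atpB and lie below the other comparisons over the left part of the plot.

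For the mitochondrial genome, 0 of 8 tested genes were higher and 4 were lower in OX5 drought than in Col-0 water (median log2 difference -0.91), while camta5 drought had 0 called in either direction (median 0.08). cox1, a cytochrome oxidase subunit gene, had 384 and 352 in OX5 drought against 4233, 3199.9 and 3222 in Col-0 water and 1262, 1162 and 1133 in Col-0 drought (log2 -3.20 ± 0.33 from Col-0 water, adjusted p = 2.18e-06). nad4, of respiratory complex I, had 424 and 328 against 1726, 2149 and 1861 (log2 -2.30 ± 0.29, adjusted p = 1.32e-05).

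The OX5 comparison called more probe sets than the drought set holds, so most of its calls had to lie outside the set. Of the 4234 probe sets called higher, 3333 were not in the camta5 drought set, and of the 4052 called lower, 3185 were not. Differences of at least 16-fold were called for 165 probe sets that were higher and 89 that were lower. CCOAMT (AT1G67980), a gene of the caffeoyl-CoA methyltransferase family of phenylpropanoid synthesis, had 11028 and 9508 in OX5 drought against 68.4, 92.6 and 55.2 in Col-0 water and 23.3, 23.2 and 27.8 in Col-0 drought (log2 6.89 ± 0.35 from Col-0 water, adjusted p = 2.81e-09). GH3.3 (AT2G23170), an auxin-conjugating enzyme gene, had 2078 and 2159.8 in OX5 drought and 6.61, 5.14 and 1.09 in Col-0 water (log2 6.73 ± 0.46). OSM34 (AT4G11650), an osmotin-like defence gene, had 2163 and 1996 against 2.75, 52.8 and 7.28 (log2 6.07 ± 0.62). Both OX5 arrays also exceeded all of the other 12 for JRG21 (a jasmonate-regulated gene, log2 6.01 ± 0.71), GAT1_2.1 (a glutamine amidotransferase gene, 5.95 ± 0.48), PDF1.4 (a defensin-like gene, 4.58 ± 0.34) and BZIP61 (a transcription factor gene, 4.22 ± 0.56). None of these 7 genes was called in camta5 drought, but in Col-0 drought against Col-0 water JRG21 was called higher (1.79 ± 0.63, adjusted p = 0.0478) and CCOAMT lower (-1.09 ± 0.31, adjusted p = 0.0188). Where the Col-0 water arrays were near the noise the size depends on the number added before log2: GH3.3 was 8.85 with an offset of 1 and 5.00 with 64, OSM34 7.45 with an offset of 1 and 4.70 with 64, JRG21 7.18 with an offset of 1 and 4.67 with 64, GAT1_2.1 7.21 with an offset of 1 and 4.55 with 64, and BZIP61 5.46 with an offset of 1 and 2.89 with 64.

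COR27 (AT5G42900), a cold-regulated gene of the evening phase of the clock, had 4956 and 5226 in OX5 drought, 80.9, 83.8 and 47.7 in Col-0 water and 108, 142 and 97.3 in Col-0 drought (log2 5.91 ± 0.43 from Col-0 water, adjusted p = 9.72e-08). IVD (AT3G45300), the isovaleryl-CoA dehydrogenase gene of leucine breakdown, had 5997 and 7604 against 336, 480.3 and 313 (log2 4.13 ± 0.53, adjusted p = 1.64e-05). The chitinase gene CHI (AT2G43570) was the member of the drought set among the 10 largest increases. It had 10228 and 13445 in OX5 drought, 634, 1452 and 1635 in Col-0 drought, 164, 326 and 477 in camta5 drought and 153, 247 and 149.8 in Col-0 water (log2 5.92 ± 0.48 from Col-0 water, adjusted p = 2.43e-07), so the OX5 arrays exceeded every other droughted array.

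On the other side, GH9C2 (AT1G64390), a cellulase-family gene, had 11.8 and 5.36 in OX5 drought against 979, 968 and 699 in Col-0 water and 204, 73.0 and 55.0 in camta5 drought (log2 -5.19 ± 0.49 from Col-0 water, adjusted p = 9.45e-07). HYH (AT3G17609), a light-signalling transcription factor gene related to HY5, had 105 and 27.2 against 2319, 2068 and 1599 (log2 -4.78 ± 0.33, adjusted p = 5.23e-08), and the difference was -5.53 without OX5 replicate 1 and -4.04 without OX5 replicate 2. Both were usual drought falls, and OX5 was lower than Col-0 drought with log2 differences of -3.32 ± 0.49 and -3.73 ± 0.33 (adjusted p = 6.96e-05 and 6.3e-07). The remaining 8 of the 10 largest decreases with a symbol were petL, ycf4, atpF, petG, ndhE and psbB of the plastid genome, and AFR and GIS.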

How the data were processed

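Leaf RNA of 14 samples was hybridised to ATH1 arrays, 1 per sample. Per the submitters' processing notes the authors used Affymetrix Expression Console and MAS5, and the deposited values are linear MAS5 intensities, of which each array's mean after trimming 2% at each end is 500. The 64 control probe sets were left out, 16 was added and log2 was taken. Of the others, 15646 exceeded the 40th percentile of at least 2 arrays and 7100 were left out. limma 3.58.1 in R 4.3.3 was fitted to all 14 arrays with 1 mean for each of 5 groups and a trended empirical Bayes step, checked on simulated data, with Benjamini-Hochberg adjustment over all 15646. Precision is limited by the number of arrays, 2 in OX5.

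Groups come from the titles. The genotype entry of camta5 water replicate 1 reads wild type, and counting it as Col-0 was an alternative, besides offsets, filters, scalings, moderation, weights, thresholds, a replicate block and leaving out each array. Same-numbered arrays of different groups did not deviate together throughout (26 pairs, correlations of -0.164 to 0.235, 3 over 0.1, and -0.0673 to 0.0941 for camta5 drought with camta5 water), so replicate numbers were not used as pairs. No array pair shared more than 2 identical values. Platform annotation names 1 gene for 13513 probe sets, several for 503 and none for 8730. Of the 13513, 13436 matched RefSeq TAIR10.1 loci, and 1580 of the 13513 had a symbol other than the locus. Sequences were not used here.

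Named genes are CAMTA5, the 10 largest called rises and falls with a symbol and no overlap between OX5 drought and Col-0 water, the 10 largest rises and falls with a symbol in camta5 drought, and per direction the 8 with the largest camta5 change among absent and among opposite changes. Members of gene lists were counted, with up to 4 called ones named, and uncalled ones given by value. The comparison, the lists and the markers were chosen with earlier results of these data known.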

Additional observations from a re-analysis of the deposited data

Results flagged for a closer look

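Of the control probe sets for Arabidopsis genes, which no comparison above uses, 8 were brighter on both OX5 arrays than on all of the other 12, 3 were dimmer and 8 overlapped. The dimmer ones were the 25S rRNA given above, the middle GAPDH probe set (2807 and 2872, lowest other array 3689) and the 3′ GAPDH probe set of the second design (4974 and 4872, against 6140). The brighter ones follow. The lower OX5 value was 98.8 for 5S rRNA, where the highest other array had 65.6. For actin it was 222.0 on the 5′ probe set of the first design (highest other array 221.8) and 3149 on the middle one (2881). On the second design of actin probe sets it was 12146 at the 3′ end (11291), 3471 at the 5′ end (1562) and 5779 in the middle (4246). For ubiquitin it was 8721 on the middle probe set of the first design (5098) and 22862 on the 5′ probe set of the second (20262). Their part in the results above was not tested. No group held 4 or more arrays, so no array was tested for standing apart within its group.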

How the results depend on the processing

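Of 288 alternatives to the 10 counts and shares above, 19 moved a value by over 1.5 times, 10 of them by leaving out 1 array. OX5 drought against Col-0 water gave 4234 probe sets higher and 4052 lower, and 3211 to 4275 and 3523 to 4097 when 1 array was left out. Quantile normalization gave 3878 higher and 4569 lower and centring on the median 3424 and 4725, since these scalings move the median of all probe sets from 0.05 to -0.07 and -0.12. The 5 arrays alone gave 4085 and 3837. The rises in the drought set ran from 581 to 1510 and the falls from 545 to 1414 without 1 array. They were 769 and 676 with camta5 water replicate 1 counted as Col-0, 439 and 399 at an adjusted p under 0.01, and 494 and 596 with a log2 difference of at least 1, where 5.67% of rises were opposite. Over the other settings 47.8% to 60.7% of rises and 53.2% to 67.3% of falls were present, and 25.4% to 32.8% and 21.0% to 30.2% absent. Without 1 array these were 49.0% to 64.1% and 54.5% to 68.3% present, 24.1% to 32.2% and 19.2% to 31.4% absent, and 6.62% to 9.99% and 5.53% to 12.7% opposite. Taking the set from a fit without the OX5 arrays, chosen after seeing the data, gave 1445 rises (56.6% present) and 1284 falls (63.9%).

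Replicate numbers were not used as pairs. The highest correlations were 0.228 and 0.235, for numbers 1 and 2 of Col-0 drought with camta5 drought, and number 3 gave -0.159. Differently numbered arrays were not compared in this way, so whether same-numbered arrays shared a batch was not tested. With the replicate number as a block 4069 probe sets were higher and 3926 lower, and of 1309 rises 58.8% and of 1174 falls 61.3% were present. Of 9369 alternatives to single gene values, 8968 kept direction and call, 290 ended a call, 106 made one and 5 reversed a sign with a call on 1 side. All 5 came with quantile normalization: RCA went from 0.10 to -0.32 against Col-0 water and from 0.20 to -0.38 against Col-0 drought, and against Col-0 drought psaB went from 0.22 to -0.36, atpE from 0.53 to -0.039 and atpB from 0.53 to -0.10. The cause was not tested. Low signals lie near the noise, so differences between them were not resolved.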

Other observations

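Gene families read by their symbols, which were grouped after the values were seen, add some biology outside the lists. Of 8 tested ATG genes, which build autophagosomes, 5 were higher and 0 lower in OX5 drought than in Col-0 water (median log2 difference 1.3), where 27.1% of all probe sets were higher. ATG8H, a ubiquitin-like gene of the autophagosome membrane, had 160.4, 247 and 136 in Col-0 water and 1291 and 1776 in OX5 drought (log2 3.00 ± 0.28, adjusted p = 1.02e-06). ATG8E had 253, 441 and 658 and 1877 and 2369 (log2 2.28 ± 0.32, adjusted p = 3.7e-05). In camta5 drought 2 of the 8 rose.

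Of 9 beta-glucosidase genes with a BGLU symbol, 6 were higher and 2 lower (median 1.89), while camta5 drought raised 0 and lowered 2. BGLU46, whose enzyme acts on lignin precursors, had 28.0, 62.8 and 34.0 in Col-0 water and 1037 and 823 in OX5 drought (log2 4.08 ± 0.36, adjusted p = 5.23e-07). BGLU45, related in sequence, had a log2 difference of 3.51 ± 0.37, and BGLU40 one of -2.44 ± 0.35. Of 31 UGT glycosyltransferase genes 14 were higher and 7 lower (median 0.95). In the same comparison 27.1% of all probe sets were higher and 25.9% lower. With 1 OX5 array left in the group fewer members of the family were called higher, as were fewer of all probe sets. Of 10 serine carboxypeptidase-like genes 0 were higher and 5 lower (median -0.79), where 25.9% of all probe sets were lower. Among them scpl46 had 1561, 1253 and 1457 in Col-0 water and 302 and 282 in OX5 drought (log2 -2.22 ± 0.18, adjusted p = 2.11e-07).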
